A study of Capra hircus with 9 samples.

Results

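The core genes of the circadian clock were followed through 3 stages of the goat mammary gland. The 10 genes, ARNTL, CLOCK, PER1, PER2, PER3, CRY1, CRY2, NR1D1, NR1D2 and DBP, were chosen by symbol and were all found, each once, among the 23499 genes of the expression table. Mammary tissue was collected after slaughter from 9 healthy Laoshan dairy goats of 1 farm, at parity 3 and about 4 years of age, with 1 library per goat. Late lactation (LL) was represented by 3 goats at 240 days postpartum, the dry period (DP) by 3 goats at 300 days postpartum, and late gestation (LG) by 3 goats at 140 days after mating. No treatment is named, and there is no control group besides the stages themselves. The hour of slaughter is given neither in the labels nor in the methods of the study, and clock genes vary over the day, so stage and hour cannot be told apart here.

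The circadian clock is a transcriptional feedback loop that runs in most cells. The proteins CLOCK and ARNTL (also called BMAL1) pair, bind E-box elements and switch on the PER, CRY and NR1D genes and output genes such as DBP. PER and CRY proteins then return to the nucleus and inhibit the pair, while the nuclear receptors NR1D1 and NR1D2 (REV-ERB alpha and beta) repress ARNTL itself. Hence ARNTL peaks at about the opposite time of day to NR1D1, DBP and the PER genes in most peripheral tissues. In rodents the mammary gland carries its own clock, whose genes are known to shift with pregnancy and lactation.

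Expression was read as FPKM, fragments per kilobase of gene scaled to the mapped reads, so levels of different genes can be compared per length. The read depth behind each value is unknown, and no counting error can be given. The summed FPKM of a library ranged from 601250.2 in DP to 1157014.7 in LL. The libraries were brought to a common scale by median-ratio factors, which follow the typical gene and not the sum. They were 0.498 to 0.605 in LL, 1.44 to 1.53 in the DP libraries and 1.198 to 1.31 in LG. Without these factors the median log2 difference over all genes was 1.09 (DP against LL), 0.93 (LG against LL) and -0.18 (LG against DP). Each comparison was made with limma on log2(scaled FPKM + 1) over 14701 genes, and a gene was called when its Benjamini-Hochberg adjusted p was under 0.05 and its log2 fold change was at least 1 in size. This scale understates the change of genes near 1 FPKM, where several clock genes lie. Epithelium was seen in EPCAM at 25.3 to 71.7 FPKM and KRT8 at 37.1 to 221 FPKM across all 9 libraries. The milk protein gene CSN2 (beta-casein) was at 83442 to 101530.1 FPKM in LL, 17.6 to 47.8 in the DP libraries and 3851 to 6044 in LG.

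The values of PER1 could not be taken as a measurement of PER1 alone. VAMP2, which encodes a vesicle SNARE protein, lies on the same strand of chromosome 19 (27530891 to 27534714), with 1777 bases between the genes. In every library the VAMP2 value equalled the PER1 value plus 1.77 plus an amount of 1.0 to 1.5 FPKM, and the same amounts separated the unrelated neighbours BAX and FTL. The match was exact to the 0.01 FPKM of the table in 9 of 9 libraries. Such ties were found for 1474 of the 15945 genes searched, and PER1 was the only tied gene among the 10. The remaining 9 genes left residuals of 16.6% or more of their range against every neighbour searched on their strand. PER1 is given below with this limit, and counts are given with and without it.

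In DP against LL, 2 of the 10 clock genes were called, ARNTL higher and the tied PER1 lower. Of all genes tested, 22.6% were called in this comparison, 13.8% higher and 8.79% lower. With tied genes left out, ARNTL was the only clock gene called. The adjusted p alone was under 0.05 for 3 clock genes higher (ARNTL, CRY2, NR1D2) and 3 lower (PER1, CRY1, NR1D1), against 28.2% and 28.6% of all genes. After scaling, the libraries of the 2 stages did not overlap for 5 genes higher in DP and 3 lower, where 32.5% and 33.4% of all genes stood apart in this way. In deposited FPKM 9 of the 10 were higher in every DP than in every LL library, as were 84% of all genes. The median log2 fold change was 0.20 for the 10 genes and 0.00 for all genes. The shares of clock genes that differed thus lay near those of all genes.

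**Figure D1:**
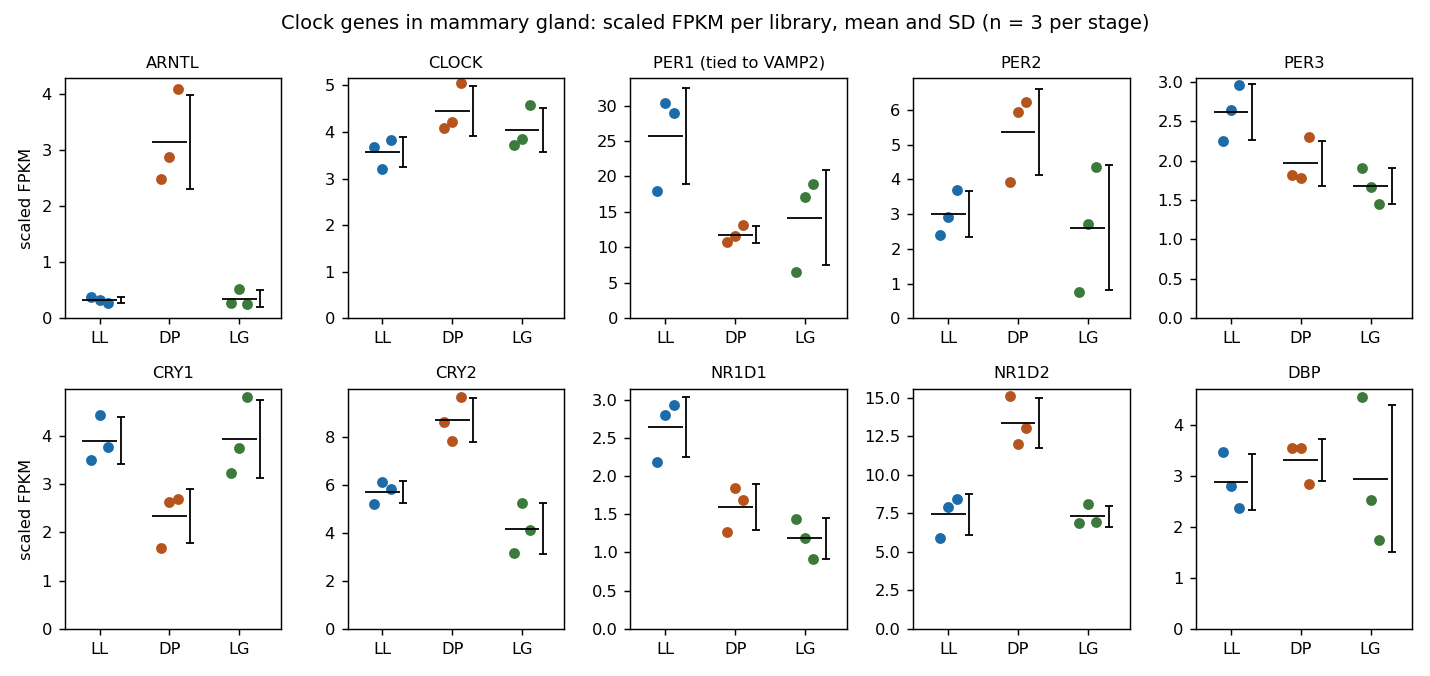
Scaled FPKM (deposited FPKM divided by the median-ratio factor) of the 10 clock genes, 1 panel per gene, with a point for each library, a line at the stage mean and a bar of 1 SD to its right (n = 3 per stage). ARNTL was at 2.48 to 4.08 in DP and at no more than 0.519 in LL and LG, while the values of PER1 are tied to those of its neighbour VAMP2.

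ARNTL (gene ID 102169495, chromosome 15, 42932789 to 43042912), the activating partner of CLOCK, had deposited values of 0.19, 0.18 and 0.16 FPKM in LL, 3.79, 4.14 and 5.87 FPKM in DP, and 0.32, 0.64 and 0.34 FPKM in LG. Every DP library stood above every other library. In whole tissue, fewer cells of a type and less RNA per cell cannot be told apart. The scaled means of LL, DP and LG were 0.324 ± 0.0588, 3.14 ± 0.833 and 0.348 ± 0.148 (SD, n = 3), so the DP mean was 9.71-fold that of LL and 9.03-fold that of LG. On the log2(scaled FPKM + 1) scale ARNTL rose by 1.63 in DP against LL (standard error 0.16, limma adjusted p = 3.69e-05). It fell by 1.61 in LG against DP (standard error 0.16, adjusted p = 0.000145). In LG against LL the difference was 0.02, with a 95% interval of -0.34 to 0.38, and the scaled ranges overlapped. Compared with ARNTL, 95.3% of all genes had a lower fold change from LL to DP and 2.36% from DP to LG. ARNTL reached 0.5 FPKM in 4 libraries, the 3 of DP and 1 of LG, so it entered the test mainly through the stage in which it was high. Its calls held under each of the 18 alternatives tried, with log2 differences of 1.21 to 2.92 for DP against LL and of -2.87 to -1.42 in LG against DP.

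CLOCK (gene ID 102175105, chromosome 6, 71419331 to 71548206), the partner of ARNTL, did not share this pattern. Its deposited values were 1.83, 1.77 and 2.32 FPKM in LL, 6.23, 6.07 and 7.28 FPKM in DP, and 4.45, 4.74 and 6.02 FPKM in LG. The scaled means of LL, DP and LG were 3.57 ± 0.329, 4.45 ± 0.532 and 4.05 ± 0.467 (SD, n = 3 each). The scaled range of LG overlapped those of both other stages, while DP lay just above LL. The log2 fold change was 0.25 in DP against LL (95% interval -0.02 to 0.53, adjusted p = 0.102), and CLOCK was called in none of the comparisons with scaling kept. Its spread within a stage was small, with a residual SD of 0.125 on the log2 scale, and 15.0% of all genes had a smaller one.

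**Figure D2:**
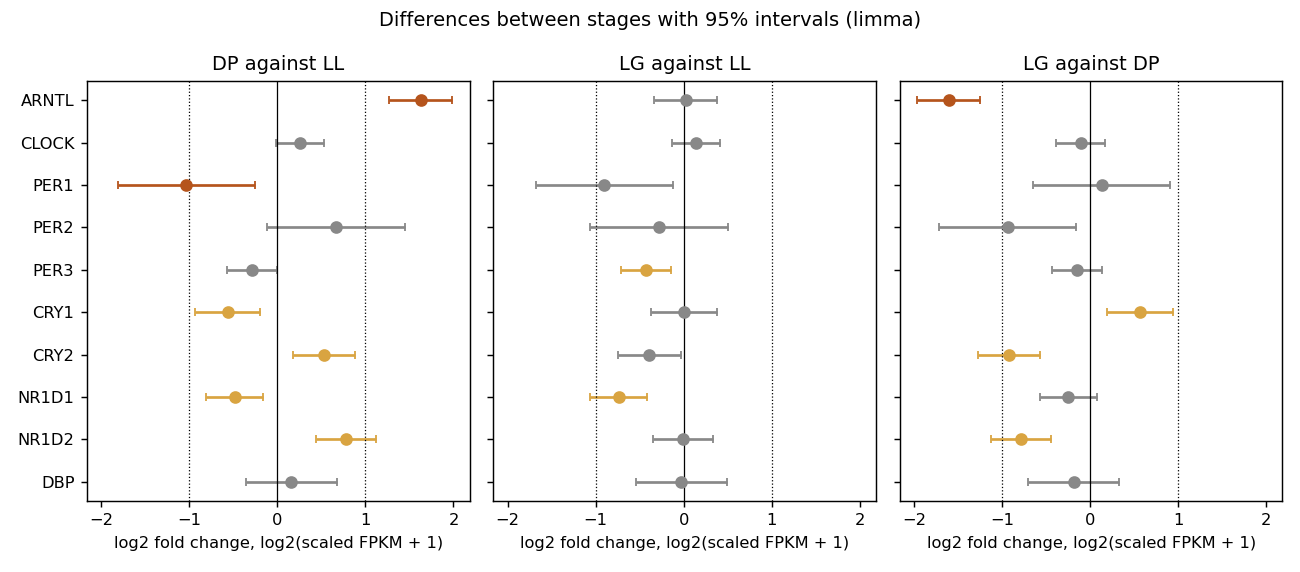
Log2 fold changes of the 10 clock genes on the log2(scaled FPKM + 1) scale with 95% intervals from limma, in 3 comparisons. Dark orange marks called genes, light orange an adjusted p under 0.05 with a change smaller than 1 (dotted lines), and grey the others. ARNTL is the gene farthest from 0 in DP against LL (1.63) and in LG against DP (-1.61) and lies at 0.02 in LG against LL.

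The ratio of ARNTL to another clock gene in the same library does not depend on the scaling. The log2 ratio of ARNTL to CLOCK was -3.86 to -3.27 in LL, -0.72 to -0.31 in the DP libraries and -4.15 to -2.89 in LG. ARNTL to NR1D1, its repressor, was at -3.47 to -2.52 in LL, 0.64 to 1.27 in the DP libraries and -2.43 to -1.20 in LG. In DP the transcript of ARNTL thus exceeded that of NR1D1 per length, while in LL and LG it was below it. ARNTL to DBP was at -3.19 to -3.11 in LL, -0.51 to 0.52 in the DP libraries and -4.09 to -2.29 in LG. For all 9 partners the 3 DP ratios lay above the 6 ratios of LL and LG, and the mean DP ratio exceeded that of LL by 2.41 (against NR1D2) to 4.36 (against the tied PER1). LL and LG lay closer together, with LG minus LL means of -0.14 (against CLOCK) to 1.21 (against NR1D1). Since ARNTL is in every ratio, these are not separate observations.

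**Figure D3:**
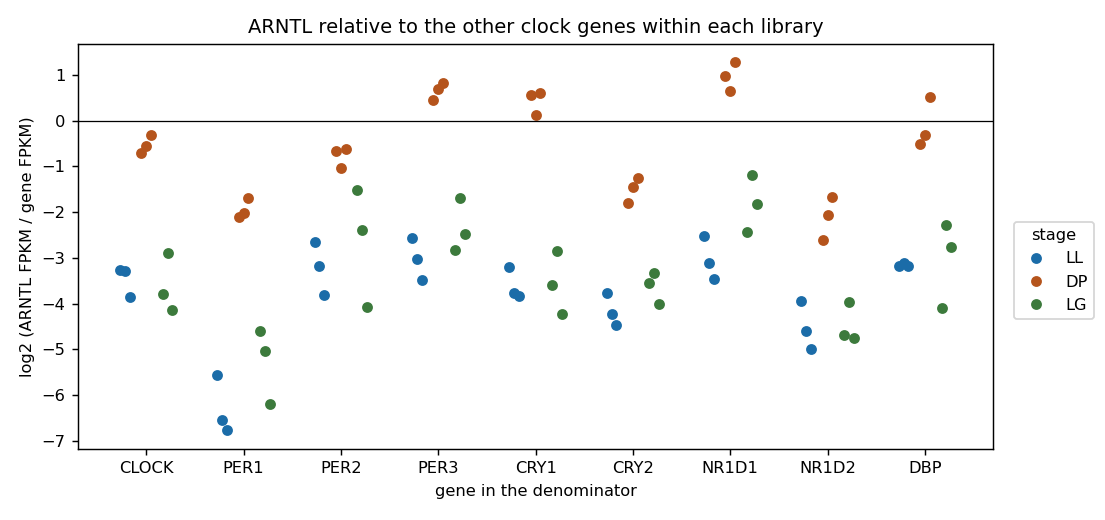
Log2 ratio of the deposited ARNTL value to that of each other clock gene in the same library, with 3 points per stage. A value of 0 means equal FPKM. For every gene on the horizontal axis the DP points lie highest, and only in DP do ratios exceed 0 (PER3, CRY1, NR1D1 and 1 DBP point).

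Among the PER genes, which encode inhibitors of CLOCK and ARNTL, PER2 (gene ID 102178971, chromosome 3, 3132903 to 3173164) had deposited values of 1.19, 1.62 and 2.24 FPKM in LL, 6.01, 8.55 and 8.98 FPKM in DP, and 0.91, 3.35 and 5.74 FPKM in LG. The DP libraries were all above those of LL, also after scaling, whereas the scaled LG libraries overlapped both. The log2 fold change was 0.66 in DP against LL (95% interval -0.12 to 1.44, adjusted p = 0.130). For LG against DP it was -0.94 (95% interval -1.72 to -0.16, adjusted p = 0.0627), a difference that was called without LG replicate 3 (-1.29, adjusted p = 0.0164) and shrank to -0.49 without LG replicate 1 (adjusted p = 0.148). PER2 and PER1 had the largest spread within a stage among the 10, with residual SDs of 0.523 and 0.509, against a median of 0.20 over all genes.

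PER3 (gene ID 102178645, chromosome 16, 44079717 to 44149387) had deposited values of 1.12, 1.46 and 1.79 FPKM in LL, 2.77, 2.57 and 3.31 FPKM in DP, and 2.28, 2.06 and 1.9 FPKM in LG. After scaling LL moved from the lowest to the highest place, and the means of LL, DP and LG were 2.62 ± 0.354, 1.97 ± 0.290 and 1.67 ± 0.229 (SD, n = 3). It was lower in LG than in LL by 0.43 on the log2 scale (adjusted p = 0.0174), with no overlap of the scaled values, which is under the threshold of 1. With quantile normalization PER3 differed by -0.24 (adjusted p = 0.150), and the adjusted p was also above 0.05 without LL replicate 3 (0.0603) or LG replicate 3 (0.0528). Without scaling the difference was 0.33, below the median of 0.93 over all genes.

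PER1 (gene ID 102173685, chromosome 19, 27513654 to 27529113), tied to VAMP2, had deposited values of 8.96, 16.8 and 17.5 FPKM in LL, 16.4, 16.7 and 18.9 FPKM in DP, and 7.82, 21.2 and 24.9 FPKM in LG. The deposited values of all 3 stages overlapped, and only the scaled values of LL (18.0 to 30.4) and DP (10.7 to 13.1) stood apart. The log2 fold change was -1.03 in DP against LL (standard error 0.35, adjusted p = 0.0286). This call was lost without LL replicate 2 (-0.92), LL replicate 3 (-0.96), DP replicate 1 (-0.97) or DP replicate 2 (-1.02) and with quantile normalization (-0.73). In LG against LL, PER1 was not called (-0.90, adjusted p = 0.0530) but was called without LL replicate 1 (-1.15), LG replicate 2 (-1.09) or LG replicate 3 (-1.16). Without LG replicate 1 the PER1 difference was -0.46 (adjusted p = 0.135).

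The cryptochromes, which encode the other inhibitors of the loop, differed in opposite directions between DP and LL. CRY1 (gene ID 102188477, chromosome 5, 68963253 to 69053571) had scaled values of 3.5, 4.45 and 3.78 in the LL libraries, 1.69, 2.63 and 2.7 in the DP libraries, and 3.23, 3.75 and 4.82 in the LG libraries. All 3 DP libraries lay below the 6 others. The log2 fold change was -0.57 in DP against LL (standard error 0.17, adjusted p = 0.0163) and 0.57 in LG against DP (adjusted p = 0.0258), whereas LG and LL differed by -0.0012 (95% interval -0.37 to 0.37). The adjusted p of CRY1 was above 0.05 without LL replicate 2 or DP replicate 1 in the former comparison (0.0572 and 0.0546) and without DP replicate 1, LG replicate 2 or LG replicate 3 in the latter (0.0551 to 0.0853). The deposited values of CRY1 were 1.74 to 2.46 FPKM in LL, 2.58 to 3.88 in the DP libraries and 3.87 to 6.33 in LG.

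CRY2 (gene ID 102183085, chromosome 15, 7069938 to 7104940) had scaled values of 5.2, 6.11 and 5.83 in the LL libraries, 8.62, 7.83 and 9.67 in the DP libraries, and 3.16, 5.25 and 4.14 in the LG libraries. Here the 3 DP libraries lay above the 6 others. CRY2 was higher in DP than in LL by 0.53 on the log2 scale (standard error 0.16, adjusted p = 0.0178) and lower in LG than in DP by 0.92 (adjusted p = 0.00206), both under the threshold of 1. The adjusted p of the former was above 0.05 without LL replicate 1 (0.0669) or DP replicate 3 (0.0514). The latter passed the threshold with a pseudocount of 0.1 (-1.06) or without LG replicate 2 (-1.06). The log2 ratio of CRY1 to CRY2 within a library, which needs no scaling, was -0.62 to -0.46 in LL, -2.35 to -1.57 in the DP libraries and -0.49 to 0.22 in LG, so that CRY2 exceeded CRY1 most in DP.

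The NR1D genes, which encode the repressors of ARNTL, also differed in opposite directions between DP and LL after scaling. NR1D2 (gene ID 102172867, chromosome 27, 3646595 to 3675846) had scaled values of 5.91, 7.94 and 8.42 in the LL libraries, 15.1, 11.96 and 13.0 in the DP libraries, and 6.9, 8.1 and 6.94 in the LG libraries. The DP libraries stood above all others, and those of LL and LG overlapped. For NR1D2 the log2 difference was 0.78 in DP against LL (standard error 0.15, adjusted p = 0.00227) and -0.79 in LG against DP (adjusted p = 0.00384). The scaled means of LL, DP and LG were 7.42 ± 1.33, 13.4 ± 1.59 and 7.31 ± 0.681 (SD, n = 3).

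NR1D1 (gene ID 102176826, chromosome 19, 40037655 to 40045436) had scaled values of 2.19, 2.8 and 2.92 in the LL libraries, 1.26, 1.85 and 1.69 in the DP libraries, and 1.44, 1.19 and 0.913 in the LG libraries. LL lay above both other stages with no overlap. The log2 fold change was -0.49 in DP against LL (standard error 0.14, adjusted p = 0.0172) and -0.74 in LG against LL (adjusted p = 0.00254), and the latter was called with a pseudocount of 0.1 (-1.10). The adjusted p of NR1D1 in DP against LL was above 0.05 without LL replicate 2, LL replicate 3 or DP replicate 1 (0.0536 to 0.0581). In deposited FPKM the gene was at 1.09 to 1.77 in LL, 1.93 to 2.66 in the DP libraries and 1.2 to 1.73 in LG, so the order of LL and DP rests on the scaling. The log2 ratio of NR1D2 to NR1D1, which does not, was 1.43 to 1.53 in LL, 2.70 to 3.58 in the DP libraries and 2.26 to 2.93 in LG.

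DBP (gene ID 102178299, chromosome 18, 56300148 to 56306649), a transcription factor of the PAR bZIP family and a direct output of the loop, had deposited values of 1.73, 1.55 and 1.44 FPKM in LL, 5.41, 5.12 and 4.09 FPKM in DP, and 5.45, 3.13 and 2.3 FPKM in LG. After scaling the ranges of the 3 stages overlapped. The log2 fold changes were 0.16 (95% interval -0.36 to 0.67) in DP against LL, -0.03 (-0.55 to 0.49) in LG against LL and -0.19 (-0.70 to 0.33) in LG against DP. These intervals leave room for changes of up to about 0.7 in either direction on this scale.

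None of the 10 genes was called by limma when LG was set against LL, where 17.3% of all genes were called. The adjusted p was under 0.05 for 0 genes higher and 2 lower (PER3 and NR1D1), beside 25.6% and 24.6% of all genes, and 4 genes had an unadjusted p under 0.05. The scaled libraries did not overlap for the same 2 genes, both lower (30.2% of all genes), and in deposited FPKM 7 of the 10 were higher in every LG library (76.1% of all genes). When LG was set against DP, 1 gene (ARNTL) was called lower and 0 higher, beside 6.88% and 6.37% of all genes, 13.3% in all. The adjusted p alone passed for 3 genes lower (ARNTL, CRY2 and NR1D2) and for CRY1 higher, where 16.4% and 18.4% of all genes passed, and the same 4 genes did not overlap after scaling, as 22.8% and 25.1% of all genes did not. In deposited FPKM 7 of the 10 were lower in every LG than in every DP library (34.2% of all genes). The median log2 fold changes of the 10 genes were -0.15 and -0.22 in these comparisons, against 0.02 and 0.01 for all genes. The comparisons with DP share the DP libraries and those with LL share the LL libraries, so they are not separate observations of ARNTL.

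In the order of FPKM within a library, ARNTL was the lowest of the 10 in 3 of 3 LL and 3 of 3 LG libraries and ranked 7 of 10 by its mean in DP, at 4.60 ± 1.11 FPKM (SD, n = 3), where its values overlapped those of DBP above it (4.87 ± 0.694) and of CRY1 below it (3.42 ± 0.726). NR1D2 ranked 2 of 10 in LL (4.14 ± 1.101 FPKM) and in LG (9.12 ± 0.865), behind the tied PER1 (14.4 ± 4.75 and 17.95 ± 8.97), and 1 of 10 in DP (19.7 ± 3.02), where it overlapped PER1 (17.3 ± 1.37). CRY2 ranked 3 of 10 at each stage (means of 3.17 ± 0.505, 12.8 ± 1.36 and 5.23 ± 1.36 FPKM for LL, DP and LG), and in LL and DP its range lay above that of the gene next in order. In LL the means of CRY1, CLOCK, PER2, DBP, NR1D1 and PER3 lay between 1.46 and 2.16 FPKM, and each overlapped the next in order.

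The 3 LG goats differed among themselves more than those of the other stages in PER2, PER1 and DBP. LG replicate 1 had the lowest PER2 of all 9 libraries, 0.760 scaled FPKM against 2.72 and 4.37 in the other LG libraries, a 5.75-fold range, whereas PER2 ranged 1.55-fold within LL and 1.59-fold within DP. The same goat had the highest DBP of all 9, 4.55 against 2.54 and 1.75, a 2.6-fold range. LG replicate 3 was at the other end in both genes. The log2 ratio of PER2 to DBP, which needs no scaling, was therefore -2.58 in LG replicate 1, 0.10 in replicate 2 and 1.32 in replicate 3, while it ran from -0.54 to 0.64 in LL and from 0.15 to 1.13 in DP. Within LG, PER1, CRY1, CRY2, CLOCK and NR1D2 had their lowest value in the same library as PER2. For CLOCK (3.72 against 3.84 and 4.58 scaled FPKM) and NR1D2 (6.90 against 8.10 and 6.94) the gap to the next library was small. NR1D1 and PER3 had their highest value in the same library as DBP. ARNTL was at 0.259 to 0.519 scaled FPKM in these goats, a 2.01-fold range (coefficient of variation 42.4%), and at such levels the added 1 compresses its spread on the log2 scale. DBP had a residual SD of 0.329, and 81.0% of all genes had a smaller one. For PER2 that share was 93.7%.

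**Figure D4:**
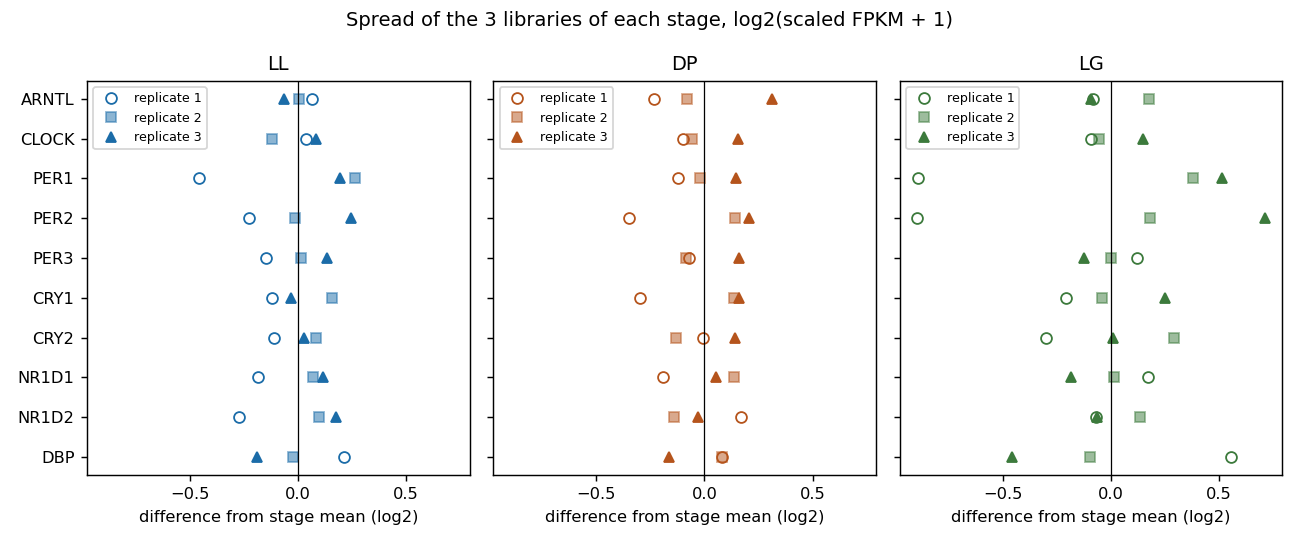
Difference of each library from its stage mean on the log2(scaled FPKM + 1) scale for the 10 clock genes, with 1 panel per stage and a symbol per replicate number. In LG, replicate 1 (open circles) lies at -0.90 for PER2 and 0.55 for DBP and replicate 3 (triangles) at 0.71 and -0.46, a wider spread than in LL or DP. The numbers do not link goats across stages.

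Of 23 further genes of the clock network, 22 were in the table and 21 passed the filter. In DP against LL 5 were called higher and 2 lower, in LG against LL 2 higher and 4 lower, and in LG against DP 4 lower, beside the background shares of 13.8% and 8.79%, 10.7% and 6.61%, and 6.88%. Their median log2 fold changes were 0.20, 0.12 and -0.15. Against LL these genes thus differed in both directions. In LG against DP 0 were called higher, beside 6.37% of all genes, and with 21 genes tested 0 lies near that share. Of the 4 repressors listed, BHLHE40, BHLHE41 and CIART were called higher in DP than in LL and lower in LG than in DP, as were ARNTL and 3.78% of all genes tested (555 of 14701), and both comparisons share the DP libraries. The remaining repressor, NFIL3, had a log2 difference of the opposite sign between DP and LL (-0.80, adjusted p = 0.00987).

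BHLHE41 (DEC2), an E-box repressor, was at 0.16, 0.18 and 0.16 FPKM in LL, 5.96, 5.49 and 5.09 in the DP libraries, and 1.5, 1.14 and 2.01 in LG. It rose by 1.86 in DP against LL (standard error 0.12, adjusted p = 5.12e-06) and fell by 1.10 in LG against DP (adjusted p = 0.000258) on the log2 scale. Its paralog BHLHE40 (DEC1) was at 2.45, 2.48 and 4.41 FPKM in LL, 17.7, 26.4 and 31.6 in the DP libraries, and 5.14, 2.34 and 3.29 in LG, with log2 fold changes of 1.46 (adjusted p = 0.00197) and -2.23 (adjusted p = 0.000399). CIART, another inhibitor of the pair, was at 0.08, 0.06 and 0.08 FPKM in LL, 1.81, 3.12 and 4.46 in the DP libraries, and 0.48, 0.52 and 0.33 in LG, with log2 fold changes of 1.43 (adjusted p = 0.000364) and -1.17 (adjusted p = 0.00226). In all 3 genes, which were named for their calls in both comparisons, every DP library exceeded every other library in deposited FPKM. Of all genes, 84% were higher without overlap in DP against LL and 34.2% lower in LG against DP. The share with both was not counted. CIART reached 0.5 FPKM in the 3 DP libraries and 1 of LG, so it too entered the test mainly through the stage in which it was high. BHLHE41 reached 0.5 FPKM only in DP and LG libraries, so it entered through the stages in which it was higher. LG differed from LL by 0.77 for BHLHE41 (adjusted p = 0.000913), -0.77 for BHLHE40 (adjusted p = 0.0426) and 0.26 for CIART (adjusted p = 0.323). None of them reached the threshold of 1. The scaled mean of BHLHE41 was 0.304 in LL and 1.24 in LG, levels at which this scale understates the change. For LG against DP, BHLHE41 was not called without LG replicate 2 (-0.99), and CIART was not called without DP replicate 3 (-0.93).

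The paralogs of the activators did not follow ARNTL. ARNTL2 was at 1.31 to 1.74 FPKM in LL, at 1.63 to 3.77 FPKM in DP and at 1.09 to 1.57 FPKM in LG, with a log2 difference of -0.48 for DP against LL (adjusted p = 0.0540) and -0.85 in LG against LL (adjusted p = 0.00499). NPAS2, the paralog of CLOCK, was lower in DP than in LL by 0.54 after scaling (adjusted p = 0.00936). RORA, a receptor that activates ARNTL at the sites where NR1D1 represses it, had a log2 difference of -0.74 for DP against LL (adjusted p = 0.0143) and fell by 1.18 in LG against LL (adjusted p = 0.00156), whereas without scaling RORA (-0.12) was not called. NFIL3, which competes with DBP for D-box elements, fell by 2.04 in LG against LL (adjusted p = 7.23e-05) and by 1.23 in LG against DP (adjusted p = 0.00200), with deposited values of 12.9 to 17.5 FPKM in LL, 18.3 to 28.2 FPKM in DP and 5.96 to 8.89 FPKM in LG. Without scaling NFIL3 was not called in the former comparison (-0.94).

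Among clock-controlled outputs, NAMPT, the enzyme of NAD salvage, was at 7.71 to 13.7 FPKM in LL, 6.89 to 8.32 in the DP libraries and 3.38 to 4.19 in LG, and fell by 1.70 in DP against LL (adjusted p = 4.55e-05) and by 2.30 in LG against LL (adjusted p = 1.23e-05). NOCT, a rhythmic phosphatase of NADP(H), fell by 1.88 (adjusted p = 0.000413) and 2.04 (adjusted p = 0.000344) in the same comparisons. Without scaling, neither NAMPT (-0.42) nor NOCT (-0.87) was called in DP against LL. WEE1, a mitotic inhibitor kinase with E-boxes in its promoter, was at 0.07 to 0.14 FPKM in LL, 2.4 to 4.64 in the DP libraries and 2.75 to 3.52 in LG, and rose by 1.37 (adjusted p = 0.000139) and 1.51 (adjusted p = 0.000111). BTRC was listed not as an output but as a modifier, an F-box protein that marks PER proteins for degradation. It was at 0.08, 0 and 0.2 FPKM in LL, 2.43 to 2.74 in the DP libraries and 1.46 to 2.06 in LG. BTRC rose by 1.24 (adjusted p = 9.92e-05) in DP against LL and by 1.07 (adjusted p = 0.000331) in LG against LL. These 4 genes were called in DP and in LG against LL, and none of them was called between DP and LG. Of all genes, 22.6% were called in DP against LL and 17.3% in LG against LL. The share called in both was not counted, and both comparisons share the LL libraries. BTRC was not called with quantile normalization (0.95 and 0.91) or, for LG, without LG replicate 2 (0.98).

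**Figure D5:**
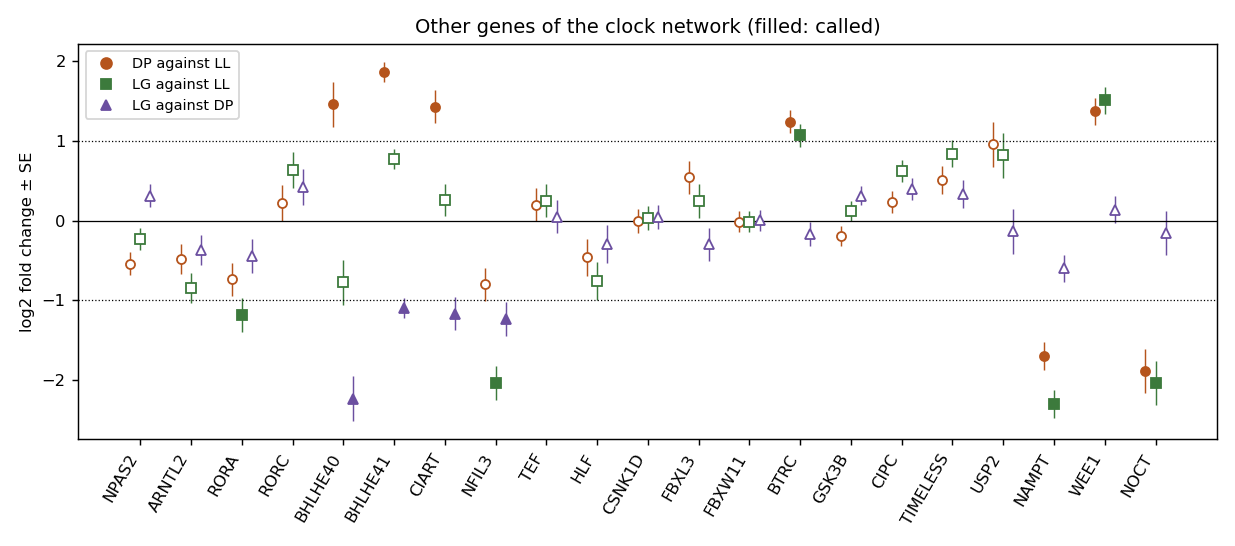
Log2 fold changes ± standard error on the log2(scaled FPKM + 1) scale of the 21 other clock network genes tested, with 3 comparisons per gene and filled symbols for called genes. BHLHE40, BHLHE41 and CIART lie above 1 in DP against LL and below -1 in LG against DP.

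By the correlation of scaled log2 values over the 9 libraries, the genes most like ARNTL outside the clock were MAPK11 (r = 0.994), EMILIN2 (r = 0.993) and SLC16A14 (r = 0.992). The most similar clock gene was NR1D2 (r = 0.900) and the least similar CRY1 (r = -0.78). NR1D1 was most like FBXO2 (r = 0.996), ZFPM2 (r = 0.996) and NEK11 (r = 0.995), and PER3 was most like PSD2 (r = 0.992), SPRN (r = 0.984) and IFITM5 (r = 0.978), and the 2 clock genes were each other's closest member of the 10 (r = 0.931). CRY2 was nearest to DOCK9 (r = 0.975), FURIN (r = 0.974) and ACADL (r = 0.972), and NR1D2 to EDIL3 (r = 0.976). CLOCK was nearest to BEND3 (r = 0.974), CRY1 to AFF1 (r = 0.958) and PER2 to MAP3K6 (r = 0.961). DBP had the weakest best match, MAVS (r = 0.924), and PER1 was most like VAMP2 (r = 0.991), to which it is tied. These libraries form 3 stages, so a shared difference between stages is enough for a high r, which is given as a description.

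Other groups of genes moved with the stages in which ARNTL and its relatives differed. Of all genes, 13.8% were called higher and 8.79% lower in DP against LL, and 10.7% and 6.61% in LG against LL. Of 5 fibroblast markers 4 were called higher in DP against LL, and their summed scaled FPKM was 176 to 270 in LL, 429 to 1744 in the DP libraries and 425 to 745 in LG. In LG against LL the collagen genes COL1A1 and COL3A1 were called higher. DCN (1.85 and -2.09) and PDGFRA (1.65 and -2.41) were called higher in DP than in LL and lower in LG than in DP, the same directions as ARNTL. The leukocyte marker PTPRC (1.58 and -1.24) was called in the same way, as were 3.78% of all genes tested. The fibroblast markers COL1A1 (-0.25), COL3A1 (0.26) and LUM (-1.06) were not called in LG against DP. Of the 5 leukocyte markers 4 were in the table and 3 were tested, 2 of which were called higher in DP against LL, with sums of 10.8 to 16.1, 23.0 to 62.4 and 11.9 to 18.4 in LL, DP and LG. The 5 luminal markers summed to 795 to 1080, 251 to 499 and 712 to 871 in this order. Of these, 1 was called lower in DP against LL, ELF5 (-4.19). ELF5 had scaled means of 596, 32.1 and 452 and held the largest part of the sum in LL and LG. In DP against LL EPCAM (-0.74) and KRT19 (-0.40) were lower and KRT8 (0.28) and KRT18 (0.60) higher, none of them called. The 5 secretory markers were all called lower in DP and in LG against LL. The 4 basal markers in the table summed to 153 to 201, 119 to 429 and 202 to 278, and the 5 endothelial markers to 93.2 to 125, 112 to 160.3 and 58.1 to 79.9. The 4 adipocyte markers in the table summed to 2.71 to 3.72, 2.57 to 20.4 and 1.14 to 1.69, with LEP at 0 in all 3 LL libraries, and the 4 skeletal muscle markers were at or near 0 (sums of at most 1.195). CSN1S1, CSN3, KRT5, KRT14 and PECAM1 among these markers were tied to a neighbour in the way of PER1. The part of these cells in the clock results was not tested.

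PER1 and PER2 are known to respond to glucocorticoids in other tissues, and glucocorticoid targets and immediate early genes are therefore given beside them. Of this list of 7 genes, 4 were called lower when LG was set against LL and 4 when it was set against DP, beside 6.61% and 6.88% of all genes, while between DP and LL NR3C1, the receptor, alone had an adjusted p under 0.05 (-0.53, adjusted p = 0.02996) and did not reach the threshold of 1. TSC22D3 (GILZ) was at 29.6 to 58.1 FPKM in LL, 91.5 to 114 in the DP libraries and 24.8 to 31.0 in LG and fell by 1.80 in LG against LL (adjusted p = 9.62e-05) and by 1.61 in LG against DP (adjusted p = 0.000342). Without scaling TSC22D3 was not called in the former (-0.64). KLF9 fell by 1.07 (adjusted p = 0.00274) and 1.01 (adjusted p = 0.00572) in these comparisons. Its call against LL was lost with quantile normalization (-0.89), without LL replicate 2 (-0.97) or without LG replicate 1 (-0.94), and it turned to 0.053 without scaling. Its call against DP was lost without DP replicate 2 (-0.83), without LG replicate 1 (-0.88) or with tied genes left out (-0.998). FKBP5 fell by 2.82 in LG against LL (adjusted p = 0.00564) and was at 7.78, 12.9 and 75.8 FPKM in LG, and ZBTB16 was at 2.55, 7.88 and 20.4 FPKM there. The calls of ZBTB16 (-1.49 against LL and -1.68 against DP) and SGK1 (-1.29 against DP) were each lost under 6 or 7 alternatives, among them leaving out LG replicate 1. FKBP5, KLF9 and ZBTB16 were lowest in LG replicate 1 and highest in LG replicate 3, as was PER2. The other 4 genes of the list were not, with TSC22D3 lowest in replicate 2, SGK1 and DUSP1 highest in replicate 2 and NR3C1 highest in replicate 1. Of 8 immediate early genes, 1 was called in DP against LL and 1 in LG against DP, both lower, and 3 between LG and LL (EGR1 higher, JUN and ATF3 lower). Of all genes, 22.6%, 13.3% and 17.3% were called in these comparisons. The calls of EGR1 and JUN between LG and LL were lost without most of the single libraries of these 2 stages. JUNB, the call between LG and DP, was lost without LG replicate 1 (adjusted p = 0.0602) or LG replicate 3 (adjusted p = 0.0535), and ATF3 was not called without scaling in DP against LL (-0.51) or LG against LL (-0.90). The part of slaughter, its hour and the handling of tissue in the clock results was not tested.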

How the data were processed

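The labels list FastQC, Trimmomatic, HISAT2, SAMtools and HTSeq, and the study's methods describe StringTie FPKM per transcript. The authors deposited 1 table with a value per gene and library, for 9 goats, which was read as FPKM since it holds values with 2 decimals whose totals are unequal. The table names neither unit nor genome build. Gene identifiers and coordinates are those of the table, and the identifiers of all 10 clock genes were found in RefSeq's gene list for ARS1.2. No library pair held identical values. Each library is from a different goat.

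Values were divided by median-ratio factors from 15905 genes, 1 was added and log2 was taken. A gene entered the limma 3.58.1 test (R 4.3.3) if 3 or more libraries reached 0.5 FPKM, which left 14701 (all 9 libraries in 1 fit, mean-variance trend, Benjamini-Hochberg adjustment). Means and SDs are of deposited or scaled FPKM as stated. With 3 goats per stage an exact permutation test cannot give a p below 0.1, so none is shown. Ties were sought among the 8 nearest neighbours on either side that share the strand, with a residual under 1% of the range after a straight line plus the BAX minus FTL amounts.

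The 10 genes and all lists were chosen with earlier results of these data known. The 10 genes were named whatever their result, and other clock genes where called in at least 1 comparison, or as a paralog, and for each of the 10 the 3 genes with the highest correlation were recorded. Some of these are not reported here. In simulated data for DP against LL with 14701 genes, 89 of 100 genes changed by 1.5 and 97 of 100 changed by 3 on the log2 scale were called, with 2 of 14501 unchanged genes. The changed genes were drawn only from those with a mean above 2 on the log2(scaled FPKM + 1) scale. These rates therefore do not cover low genes such as ARNTL. Alternatives covered scaling, pseudocount (0.1), filter (none, or 2 FPKM), the libraries in the fit, a replicate block, the trend, the call rule, each library left out and, added after the values were seen, tied genes left out. Plots were drawn with matplotlib 3.10.9. No sequences are shown.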

Additional observations from a re-analysis of the deposited data

How the results depend on the processing

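With scaling kept, 469 of 504 values of the 10 clock genes under an alternative held their direction and side of the threshold, and 23 changed sign, each in a comparison in which the gene was not called. Clock genes called in DP against LL (2) became 6 without scaling, 1 with quantile normalization, 1 with tied genes left out and 6 by the adjusted p alone, and 1 to 2 with a library left out. In LG against LL (0) they became 1 without scaling, 1 with a pseudocount of 0.1 and 2 by the adjusted p alone, and 0 to 1 with a library left out. In LG against DP (1) they became 4 without scaling, 2 with a pseudocount of 0.1 and 4 by the adjusted p alone, and 1 to 2 with a library left out. The library that moved a count was LL replicate 2, LL replicate 3, DP replicate 1 or DP replicate 2 in DP against LL, LL replicate 1, LG replicate 2 or LG replicate 3 in LG against LL, and LG replicate 2 or LG replicate 3 in LG against DP. Among all genes, those called without scaling were 8348, 7043 and 2292 in the 3 comparisons against 3321, 2544 and 1948, and by the adjusted p alone 8359, 7383 and 5112. With a pseudocount of 0.1 those in LG against LL were 3912. The unscaled values contain the shift of all genes.

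Without scaling, DP against LL turned to 0.30 for PER1, 0.67 for PER3, 0.47 for CRY1 and 0.44 for NR1D1. LG against LL turned to 0.21 for PER1, 0.53 for PER2, 0.33 for PER3, 0.90 for CRY1, 0.56 for CRY2, 0.0023 for NR1D1, 1.00 for NR1D2, 0.79 for DBP and 0.053 for KLF9, and LG against DP turned to -0.091 for PER1. With quantile normalization ARNTL (-0.29) and DBP (0.12) turned in LG against LL, and PER1 (-0.013) and PER3 (0.032) in LG against DP. With a library left out, LG against LL ran from -0.066 to 0.067 for ARNTL, -0.63 to 0.17 for PER2, -0.13 to 0.10 for CRY1, -0.16 to 0.068 for NR1D2 and -0.31 to 0.20 for DBP, and LG against DP from -0.13 to 0.58 for PER1 and -0.46 to 0.041 for DBP. The cause of these turns was not tested. NR1D1 was not tested under the filter of 2 FPKM.

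Goats with the same replicate number did not deviate together in every pair of stages (r = -0.11 to 0.20 over all genes tested), so the numbers were not taken as pairs. A replicate block gave 2, 0 and 1 clock genes called in the 3 comparisons, as without it, and among the other named genes only EGR1 lost its call in LG against LL (1.72, adjusted p = 0.0643). Not every library correlated best with its own number. Over the 10 clock genes alone the same-number r was 0.56 to 0.71 between LG and LL and -0.36 to 0.54 between LG and DP. With the block the adjusted p was 0.0130 for PER1 in LG against LL, and for PER2 0.0308 in DP against LL and 0.0121 in LG against DP, with unchanged differences under 1. The unknown read depth leaves the counting error of low values, such as ARNTL in LL, open to no estimate.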
